A study of Mus musculus with 6 samples.

Results

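A set of 43 genes for non-collagen matrix proteins, of 53947 genes in the tables, is described in the quadriceps of HSALR and WT mice. The genes were given as a list of symbols of matrix genes, with no threshold on their values. The list was chosen with earlier results of these data known, and all 43 genes were found in the tables. They were split into 8 basement membrane genes and 35 interstitial genes, and the interstitial genes into 12 genes of elastic fibres and microfibrils, 8 proteoglycans, 12 adhesive and matricellular genes and 3 regulators of collagen fibrils and mineral.

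Muscle fibres sit in a matrix that is more than collagen. Each fibre is wrapped in a basement membrane, a thin sheet in which laminins, nidogens and perlecan bind one another and hold the fibre to its surroundings, and between the fibres lies an interstitial matrix of elastic fibres, small proteoglycans and adhesive glycoproteins. Much of the interstitial matrix of muscle is made by resident fibroblasts, whereas laminin chains are made by the fibres as well as by other cells.

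HSALR mice carry a transgene of human skeletal actin with about 220 CTG repeats and are used to study myotonic dystrophy type 1, a disease in which RNA with expanded CUG repeats binds the MBNL splicing factors. The actin promoter drives the transgene in skeletal muscle fibres. Total RNA depleted of ribosomal RNA was sequenced from 3 HSALR and 3 WT quadriceps samples of mice that were 12 weeks old. The labels do not say whether replicates are separate mice or separate extractions, so that p-values measure the spread between these libraries, which may in part be technical. The strain background was not given in the sources used here.

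Library totals were between 11468913 and 15023668 expected counts, and levels are given as CPM, counts scaled to library size, after TMM scaling, a scaling that sets aside the most extreme genes. The muscle marker Ckm, a creatine kinase, was at 10190, 17970 and 14880 CPM in HSALR, against 20490, 18520 and 20020 CPM in WT. HSALR replicate 1 stood apart. The small cytoplasmic and nuclear RNAs 7SL and 7SK took 43.95% of its counts, against 18.85% and 23.98% in HSALR replicates 2 and 3 and 14.15% to 15.53% in the WT libraries, and main results are therefore given with and without that library. In whole muscle, more cells of a type and more RNA per cell cannot be told apart.

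The latent TGF-beta binding protein gene Ltbp1 was the only 1 of 42 matrix genes tested that passed the test, rising 1.93-fold by counts in HSALR muscle. In 20 alternative analyses its call held in 12 and was lost in 6, and its direction reversed in 2. All 42 genes had a log2 fold change above 0 by counts, whereas 52.9% of the 13576 genes tested did. The TPM scale divides by transcript length, and the TPM of a library sum to a fixed total. On that scale, with a pseudocount of 0.1, the log2 difference of all genes had a median of -0.46 and 28 members were above 0. With each library centred on its median 41 were, all but Eln. The median log2 fold change was 0.49 for the 8 basement membrane genes and 1.08 for the 34 interstitial genes tested, against 0.04 for all genes tested. A gene was called where the quasi-likelihood test of edgeR gave an adjusted p under 0.05: 4.28% of all genes tested were called higher and 7.48% lower. Among the members 1 was called higher and 0 lower, and with no negative fold change among them 0 were lower at an unadjusted p below 0.05 or by DESeq2 either.

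The HSALR libraries differed widely from one another. At an unadjusted p below 0.05, 19 of 42 members were higher, against 15.8% of all genes. An adjusted p below 0.1 with a higher level was found in 14 members, or 33.3%, against 10.5% of all genes. All 3 HSALR values lay above all 3 WT values in 17 members, or 40.5%, against 17.8% of all genes. HSALR replicate 1 was above every WT library in 42 of 42 members, against 40.6% of all genes, and was the highest of the 6 libraries in all 42, against 29.3%. HSALR replicate 3 was above every WT library in 35 members, against 38.9% of all genes, and HSALR replicate 2 in 17, against 34.5%. In 40 of 42 members the lowest HSALR library was replicate 2. The medians of the members' log2 ratios to the WT mean were 1.63, 0.13 and 0.59 in HSALR replicates 1, 2 and 3.

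**Figure D1:**
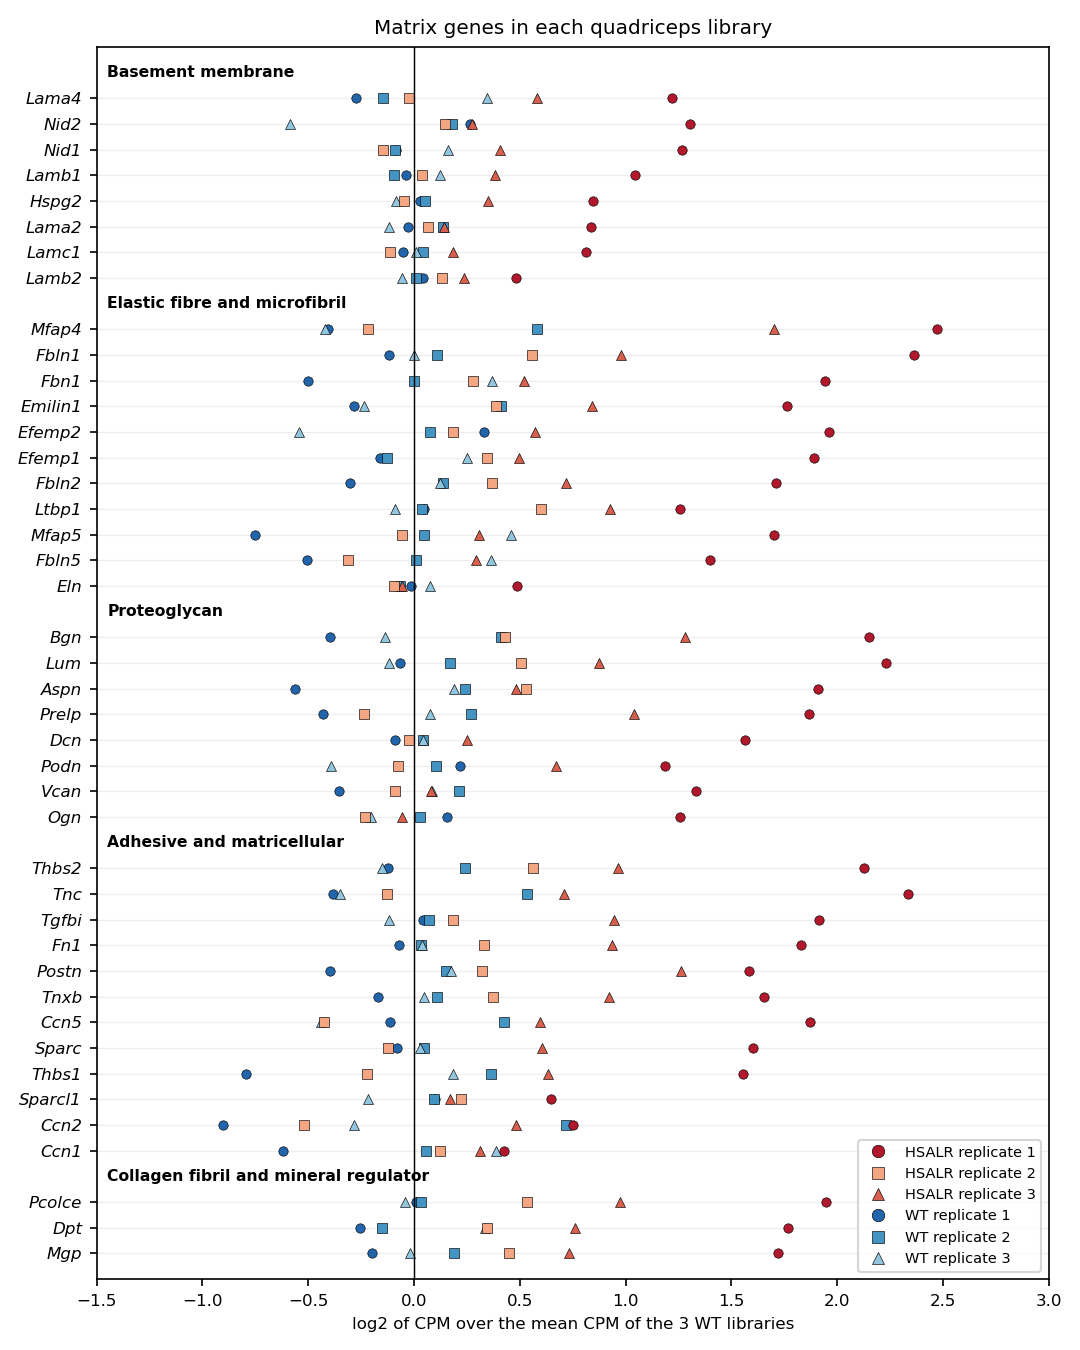
Each row is a gene and each point a library, placed at the log2 of its CPM over the mean CPM of the 3 WT libraries (red shades, HSALR; blue shades, WT; circle, square and triangle, replicates 1, 2 and 3). HSALR replicate 1 is the rightmost point in all 42 genes, and HSALR replicate 2 lies to the right of all WT points in 17 of them.

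Without HSALR replicate 1 more genes passed the test, although the fold changes were smaller. There were 9 interstitial genes and 0 basement membrane genes called higher, against 5.94% of the 13908 genes tested. These were Ltbp1, Fbln1, Fbln2, Lum, Fn1, Tnxb, Thbs2, Pcolce and Mgp. The median log2 fold change was then 0.19 for the basement membrane genes and 0.48 for the interstitial genes, and 40 of 42 members were above 0. With all 6 libraries DESeq2 called 17 members higher, again 0 of 8 from the basement membrane, against 8.57% of all genes. Without HSALR replicate 2 the members called were 22, against 10.6% of all genes, and without HSALR replicate 3 or any of the WT libraries they were 0, where 42 to 50 of all genes were called higher in each fit. With the share of 7SL and 7SK as a covariate, the medians were -0.08 for the basement membrane and 0.11 for the interstitial genes, and 20 of 42 members were above 0. This share was higher in every HSALR library than in every WT library, so that the fit cannot fully separate it from group. Medians near 0 in this fit therefore do not show that the difference between the groups was absent.

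**Figure D2:**
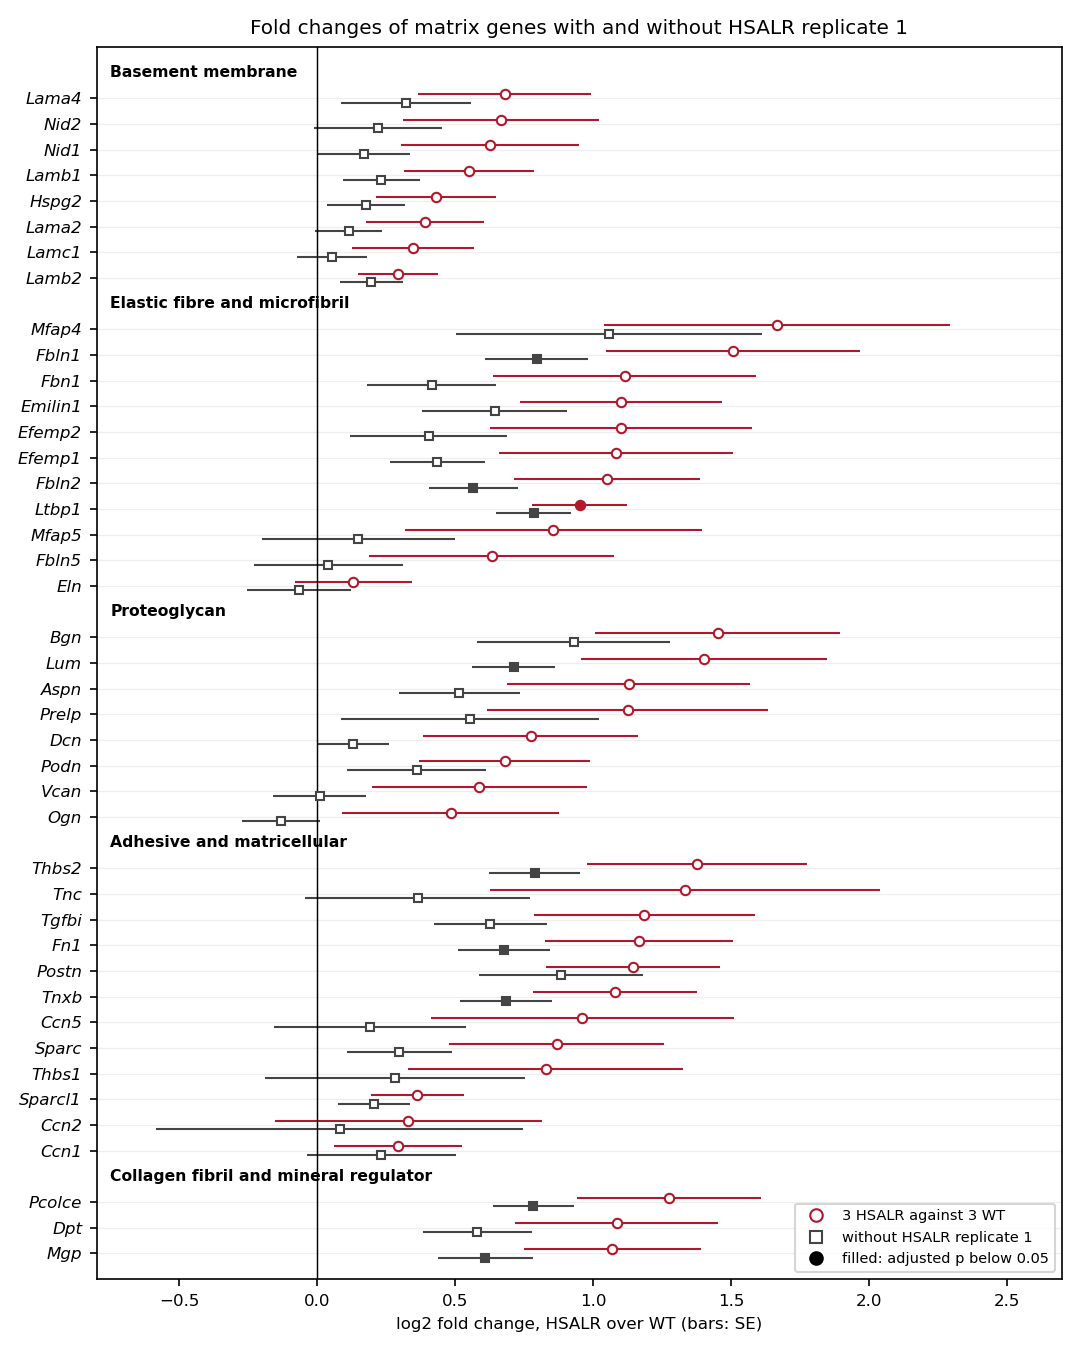
Points are log2 fold changes of HSALR over WT with standard errors, for all 6 libraries (red circles) and without HSALR replicate 1 (grey squares), and filled symbols mark an adjusted p below 0.05. Ltbp1 is the only filled circle, 9 squares are filled, and the grey bars are shorter than the red ones in most rows.

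The basement membrane genes had the lowest median fold change of the role groups. Their log2 fold changes ran between 0.29 in Lamb2 and 0.68 in Lama4. Called were 0 of 8, against 4.28% of all genes higher and 7.48% lower. Lamb1 alone had an unadjusted p below 0.05, against 15.8% of all genes higher. DESeq2 called 0 of 8, against 8.57% of all genes higher. Among 8 genes, counts of 0 or 1 lie near these shares. Without HSALR replicate 2 edgeR called 4 of 8 higher, Nid1, Hspg2, Lama4 and Lamb1, against 10.6% of all genes. The library medians of their log2 ratios to the WT mean were 0.95, 0.01 and 0.31 in HSALR replicates 1, 2 and 3, so that replicate 2 was at the WT level and replicate 1 was the highest.

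Lamb2, which encodes the laminin beta chain found at the neuromuscular junction and in mature basement membranes, had 258, 202 and 217 CPM in HSALR libraries 1, 2 and 3, against 190.0, 186 and 177 CPM in WT libraries. It was the only basement membrane gene in which the groups did not overlap, or 1 of 8. All HSALR values lay above all WT values in 17.8% of all genes. The log2 fold change of Lamb2 was 0.29 ± 0.14 (adjusted p = 0.196, edgeR). Lama2, the alpha chain of the main muscle laminin and the gene mutated in merosin-deficient muscular dystrophy, had 319, 187 and 197 CPM in HSALR libraries 1, 2 and 3, against 175, 196 and 165 CPM in WT libraries. HSALR replicate 2 lay inside the WT range, and the log2 fold change was 0.39 ± 0.21 (adjusted p = 0.238, edgeR). Lamc1, the gamma chain that pairs with either beta chain, was at 262, 138 and 169.6 CPM in HSALR, against 144, 153 and 149.9 CPM in WT. Lamb1, the beta chain that partners Lama2 along most of the fibre surface, was at 89.5, 44.5 and 56.5 CPM in HSALR, against 42.2, 40.6 and 47.3 CPM in WT. HSALR replicate 2 was just below the WT range in Lamc1 and inside it in Lamb1.

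Lama4, the alpha chain of vessel basement membranes, had 102, 42.9 and 65.4 CPM in HSALR libraries 1, 2 and 3, against 36.1, 39.4 and 55.5 CPM in WT libraries. Hspg2, which encodes the heparan sulfate proteoglycan perlecan, had 540.5, 291 and 383.5 CPM in HSALR libraries 1, 2 and 3, against 307, 312 and 283 CPM in WT libraries. Nid1 and Nid2 encode the nidogens, which link laminin to collagen IV. Nid1 had 334, 126 and 184 CPM in HSALR libraries 1, 2 and 3, against 131, 130.5 and 155 CPM in WT libraries. Nid2 had 38.3, 17.2 and 18.8 CPM in HSALR libraries 1, 2 and 3, against 18.7, 17.6 and 10.3 CPM in WT libraries. In Lama4, Hspg2, Nid1 and Nid2 HSALR replicate 1 was the highest library, replicate 3 came next, and replicate 2 was inside the WT range or, in Nid1, below it. Exons of 22 members overlap those of a gene on the other strand. The partner was abundant for Nid2 (Rtraf, 767 shared bases) and Lamb1 (Dld, 303 shared bases), and the strand setting of the counting was not given in the sources used here.

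Among the elastic fibre and microfibril genes Ltbp1 was called. Ltbp1 encodes a secreted glycoprotein that binds latent TGF-beta and anchors it to fibrillin microfibrils. It had 62.0, 39.5 and 49.4 CPM in HSALR libraries 1, 2 and 3, against 26.9, 26.7 and 24.4 CPM in WT libraries. The lowest HSALR library was above the highest WT library, and the 3 WT values lay close together. The log2 fold change was 0.95 ± 0.17, a fold of 1.93 (adjusted p = 0.0136, edgeR, 3 against 3 libraries), and 0.78 ± 0.14 without HSALR replicate 1 (adjusted p = 0.0057). With HSALR replicate 3 or any of the WT libraries left out the adjusted p was between 0.0657 and 0.0785, while the log2 fold change stayed between 0.91 and 0.98.

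The gene (ENSMUSG00000001870) lies on the plus strand at chr17:75312519-75699507 of GRCm39. Its main coding transcripts begin at either of 2 start regions that lie 173252 bases apart. Of the transcripts in the deposited tables, those that start upstream and run through the gene are 6715 and 6718 bases long, those that start downstream are 5571, 5311 and 3114 bases long, and the others are fragments of 246 to 3277 bases. The mean transcript length that the authors' program assigned, weighted by isoform abundance, was 3854, 2504 and 2971 bases in HSALR libraries, against 1687, 1974 and 2162 bases in WT libraries. Each HSALR value was above each WT value, so that the reads of the gene were assigned to longer transcripts in HSALR muscle. A deposited length that was longer in all 3 HSALR libraries than in all WT libraries was found in 5 members, Ltbp1, Hspg2, Lamb1, Eln and Fbln5, against 3.8% of all genes tested, and a shorter one in 4, Lamb2, Lama4, Fbln2 and Tnxb, against 6.87%.

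Whether Ltbp1 was called depended on the scale. As TPM, a level per transcript length and library size, it was at 4.34, 8.96 and 8.65 TPM in HSALR libraries, against 10.6, 9.32 and 6.98 TPM in WT libraries, and the groups overlapped. As TPM sum to a fixed total, abundant RNAs lower those of all other genes. The 7SL genes Rn7s1 and Rn7s2 each held 375535, 308348 and 329209 TPM in HSALR libraries, against 296333, 293560 and 303436 TPM in WT libraries. How far this shaped the overlap was not tested. On log2 TPM with each library centred on its median, the difference of Ltbp1 was 0.118 (adjusted p = 0.717, limma). With each library's effective length as an offset in the count test, the log2 fold change was 0.18 ± 0.17 (adjusted p = 0.517). More reads thus came from Ltbp1 in HSALR muscle, whereas the number of its transcripts, as the isoform model gives it, was not shown to differ.

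All WT and HSALR mean lengths were below 5311 bases, the length of the shortest transcript that runs from either start to their shared end. The downstream transcript of 3114 bases ends before that point. The mean length therefore does not tell which start was used. As Ltbp1 is the called member and has a pair of start regions, the 250 bases before each RefSeq start site are shown, with motif matches in capitals. They were taken from the RefSeq promoter table of build GRCm38.p6, where the 300-base windows span chr17:75005279-75005578 and chr17:75178531-75178830, and each matched GRCm39 at a single place. Printed are chr17:75312274-75312523 and chr17:75485526-75485775 of GRCm39, plus strand, 5′ to 3′.
Ltbp1 upstream start: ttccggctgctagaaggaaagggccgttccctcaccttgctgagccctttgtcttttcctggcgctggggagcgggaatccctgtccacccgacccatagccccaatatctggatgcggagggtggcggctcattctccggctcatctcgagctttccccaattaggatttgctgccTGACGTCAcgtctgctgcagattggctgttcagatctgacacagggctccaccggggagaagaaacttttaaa
Ltbp1 downstream start: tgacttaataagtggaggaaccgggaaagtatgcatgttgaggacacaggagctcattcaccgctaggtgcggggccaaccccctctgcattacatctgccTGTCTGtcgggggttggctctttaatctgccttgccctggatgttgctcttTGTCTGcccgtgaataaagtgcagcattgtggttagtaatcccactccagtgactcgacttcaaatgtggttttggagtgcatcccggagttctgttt
In the upstream window the capitals mark a match to the cyclic AMP response element TGACGTCA at position 178 from the 5′ end, a motif found in 1.79% of 32851 windows of the same length. In the downstream window they mark 2 matches, at positions 102 and 153, to the reverse complement of the SMAD-binding CAGA box CAGACA, which 21% of windows hold. The upstream window had 58.7% G and C with 17 CpG, and the downstream window 50% with 7 CpG, against medians of 52.7% and 7 over all windows. Both strands were searched for these and for the TATA box TATAAA, for the GC box GGGCGG, for the AP-1 site TGANTCA and for the TEAD site GGAATG, which had no match in either window and were held by 13.6%, 35.7%, 7.81% and 14.7% of all windows. A match is a description of the letters only.

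**Figure D3:**
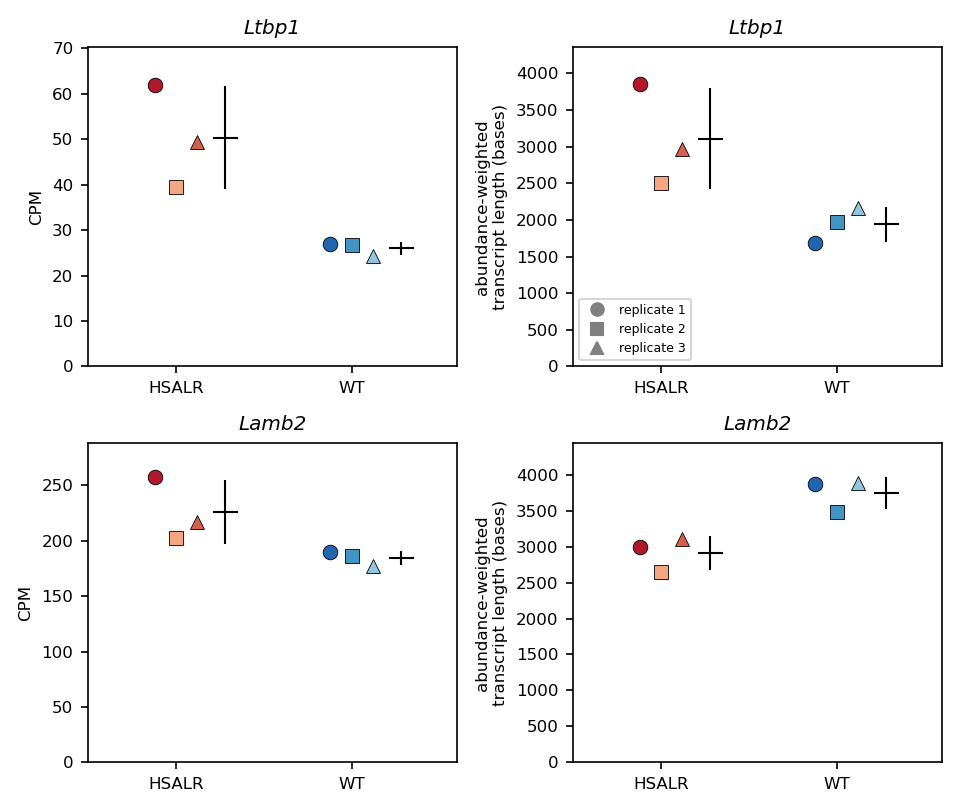
CPM (left) and abundance-weighted transcript length in bases (right) of Ltbp1 and Lamb2 in each library, HSALR left of WT, with the mean and SD of 3 libraries beside the points. In Ltbp1 both measures are higher in HSALR, whereas in Lamb2 the CPM are higher and the lengths lower, with no overlap between the groups in any panel.

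The other elastic fibre and microfibril genes were not called by edgeR with all 6 libraries. DESeq2 called Fbln1, Fbln2, Efemp1, Emilin1 and Mfap4 of them, against 8.57% of all genes called higher. The log2 fold changes of these other genes ran between 0.13 in Eln and 1.67 in Mfap4. Fbln2, a fibulin of basement membranes and elastic fibres, had 286, 113 and 144 CPM in HSALR libraries 1, 2 and 3, against 70.9, 96.0 and 95.1 CPM in WT libraries. The groups did not overlap, and the log2 fold change was 1.05 ± 0.34 (adjusted p = 0.0789, edgeR), and 0.57 ± 0.16 without HSALR replicate 1 (adjusted p = 0.0414). Fbn1, which encodes fibrillin, the backbone of microfibrils, had 608, 192 and 226 CPM in HSALR libraries 1, 2 and 3, against 112, 158 and 204 CPM in WT libraries. HSALR replicate 2 lay below the highest WT library, and the log2 fold change was 1.11 ± 0.48 (adjusted p = 0.163, edgeR) and 0.41 ± 0.23 without HSALR replicate 1 (adjusted p = 0.281). Fbln1, another fibulin, was at 39.5, 11.3 and 15.1 CPM in HSALR, against 7.07, 8.28 and 7.66 CPM in WT. Its WT values were close together and below each HSALR value, and without HSALR replicate 1 edgeR called it, at a log2 fold change of 0.80 ± 0.19 (adjusted p = 0.0187).

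Elastin stood at the other end. Eln, the core protein of elastic fibres, had 9.89, 6.62 and 6.78 CPM in HSALR libraries 1, 2 and 3, against 7, 6.76 and 7.43 CPM in WT libraries, so that HSALR replicate 2 was below the WT range and replicate 3 inside it. Its log2 fold change was 0.13 ± 0.21 (adjusted p = 0.7, edgeR) and -0.07 without HSALR replicate 1. Efemp1, a further fibulin, was at 42.1, 14.4 and 16.1 CPM in HSALR, against 10.2, 10.4 and 13.5 CPM in WT, and the groups did not overlap. Efemp2, the fibulin that elastic fibres require, was at 16.8, 4.92 and 6.45 CPM in HSALR, against 5.45, 4.57 and 2.97 CPM in WT, with HSALR replicate 2 inside the WT range. Fbln5, which guides elastin onto microfibrils, was at 28.4, 8.63 and 13.2 CPM in HSALR, against 7.57, 10.8 and 13.8 CPM in WT, with HSALR replicates 2 and 3 inside the WT range. Emilin1, found at the interface of elastin and microfibrils, was at 16.9, 6.54 and 8.93 CPM in HSALR, against 4.1, 6.62 and 4.24 CPM in WT, with HSALR replicate 2 inside the WT range.

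Of the microfibril-associated genes Mfap2 and Mfap4 were low. Mfap4 was at 8.85, 1.37 and 5.17 CPM in HSALR, against 1.2, 2.38 and 1.19 CPM in WT, with the largest log2 fold change of the members in this fit, 1.67 ± 0.63 (adjusted p = 0.115, edgeR), and HSALR replicate 2 was inside the WT range. Without HSALR replicate 1 the log2 fold change was 1.06 ± 0.55 (adjusted p = 0.235). Mfap5 was at 53.1, 15.7 and 20.1 CPM in HSALR, against 9.69, 16.8 and 22.4 CPM in WT, with HSALR replicates 2 and 3 inside the WT range. Mfap2 was too low to be tested, with 31, 6 and 9 expected counts in HSALR libraries and 8 in each of the WT libraries. Efemp2 shares 173 exon bases with Mus81 on the other strand.

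Of the 8 proteoglycans 0 were called by edgeR with all 6 libraries. In 3 all HSALR values lay above all WT values, against 17.8% of all genes. At an unadjusted p below 0.05, 3 were higher, against 15.8% of all genes. DESeq2 called Bgn, Lum and Aspn, against 8.57% of all genes called higher. Decorin was the most abundant member per length. Dcn, which encodes this small leucine-rich proteoglycan that coats collagen fibrils, had 1124, 374 and 453 CPM in HSALR libraries 1, 2 and 3, against 358, 392.5 and 391 CPM in WT libraries. HSALR replicate 1 was far above the WT libraries, replicate 3 was slightly above them and replicate 2 was inside their range. The log2 fold change was 0.77 ± 0.39 (adjusted p = 0.215, edgeR) and 0.13 ± 0.13 without HSALR replicate 1.

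Bgn, which encodes the related biglycan, had 131, 39.9 and 71.8 CPM in HSALR libraries 1, 2 and 3, against 22.5, 39.3 and 26.9 CPM in WT libraries. The lowest HSALR library was just above the highest WT library, and the log2 fold change was 1.45 ± 0.45 (adjusted p = 0.0789, edgeR), a fold of 2.73. Lum, which encodes lumican, a keratan sulfate proteoglycan of collagen fibrils, had 129.5, 39.1 and 50.6 CPM in HSALR libraries 1, 2 and 3, against 26.3, 31.0 and 25.4 CPM in WT libraries. Its log2 fold change was 1.40 ± 0.45 with all libraries (adjusted p = 0.0871, edgeR) and 0.71 ± 0.15 without HSALR replicate 1, where it was called (adjusted p = 0.0123). Aspn, encoding asporin, was at 50.6, 19.4 and 18.9 CPM in HSALR, against 9.12, 16.0 and 15.4 CPM in WT, and here HSALR replicates 2 and 3 had nearly the same level, both above the WT libraries.

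Ogn and Vcan were flat apart from the first HSALR library. Ogn, which encodes osteoglycin, had 91.3, 32.5 and 36.7 CPM in HSALR libraries 1, 2 and 3, against 42.5, 38.9 and 33.2 CPM in WT libraries, and its log2 fold change was 0.48 ± 0.39 with all libraries and -0.13 without HSALR replicate 1. Vcan, which encodes versican, a large chondroitin sulfate proteoglycan, had 70.8, 26.4 and 29.7 CPM in HSALR libraries 1, 2 and 3, against 21.9, 32.5 and 29.7 CPM in WT libraries. Prelp was at 120.2, 27.9 and 67.8 CPM in HSALR, against 24.5, 39.7 and 34.6 CPM in WT. Podn, encoding podocan, was at 25.8, 10.7 and 18.1 CPM in HSALR, against 13.2, 12.2 and 8.62 CPM in WT. In these last 2 genes HSALR replicates 1 and 3 were above the WT libraries and replicate 2 was inside their range.

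Among the adhesive and matricellular genes 0 of 12 were called. At an unadjusted p below 0.05, 5 were higher, against 15.8% of all genes. In 6 all HSALR values lay above all WT values, against 17.8% of all genes. DESeq2 called Fn1, Postn, Tnxb, Thbs2 and Tgfbi, against 8.57% of all genes called higher. Fn1, encoding fibronectin, to which many cells attach through integrins, had 691, 244.5 and 372 CPM in HSALR libraries 1, 2 and 3, against 185, 198.5 and 199 CPM in WT libraries. All HSALR values were above the WT values, which spanned a narrow range. The log2 fold change was 1.17 ± 0.34 (adjusted p = 0.0633, edgeR) and 0.68 ± 0.17 without HSALR replicate 1, where the gene was called (adjusted p = 0.0235). Sparc, a collagen-binding glycoprotein, had 546, 165 and 273.5 CPM in HSALR libraries 1, 2 and 3, against 170.2, 186 and 183 CPM in WT libraries. HSALR replicate 2 was below every WT library while replicates 1 and 3 were above them all, and the log2 fold change was 0.87 ± 0.39 (adjusted p = 0.174, edgeR).

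Tnxb, which encodes tenascin X, a glycoprotein needed for normal collagen deposition in connective tissue, had 1038, 427 and 624 CPM in HSALR libraries 1, 2 and 3, against 293, 355.5 and 340.4 CPM in WT libraries. It missed the threshold narrowly, with a log2 fold change of 1.08 ± 0.30 (adjusted p = 0.0501, edgeR), and was called without HSALR replicate 1 at 0.68 ± 0.17 (adjusted p = 0.0228). Tnc, the related tenascin C that is known for its presence in injured muscle and at tendon junctions, was at 88.9, 16.1 and 28.8 CPM in HSALR, against 13.5, 25.5 and 13.8 CPM in WT, and 1 WT library was above HSALR replicate 2. Postn, which encodes periostin, was at 32.3, 13.5 and 25.9 CPM in HSALR, against 8.2, 12.0 and 12.2 CPM in WT, with an adjusted p of 0.0544 in the edgeR test. Thbs2, a thrombospondin, was at 123, 41.5 and 55.0 CPM in HSALR, against 25.9, 33.2 and 25.4 CPM in WT, with the groups apart. Its relative Thbs1 was at 80.0, 23.4 and 42.2 CPM in HSALR, against 15.7, 35.1 and 31.0 CPM in WT, with the groups overlapping.

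Tgfbi, which encodes a TGF-beta induced adhesion protein, was at 136, 41.0 and 69.6 CPM in HSALR, against 37.1, 38.0 and 33.2 CPM in WT, and all HSALR values were above the WT values. Sparcl1, a relative of Sparc, was at 130.5, 97.3 and 93.9 CPM in HSALR, against 89.3, 89.2 and 71.8 CPM in WT, also without overlap but with a log2 fold change of only 0.36 ± 0.17. The CCN genes encode matricellular proteins, and Ccn1 and Ccn2 are known targets of YAP and TAZ. Ccn1 was at 32.5, 26.4 and 30.0 CPM in HSALR, against 15.8, 25.2 and 31.7 CPM in WT. Ccn2 was at 43.6, 18.1 and 36.2 CPM in HSALR, against 13.9, 42.5 and 21.3 CPM in WT. Ccn5, which lacks the C-terminal domain of its relatives, was at 16.3, 3.31 and 6.71 CPM in HSALR, against 4.1, 5.96 and 3.27 CPM in WT. In all of these CCN genes the groups overlapped, and in Ccn1 and Ccn2 the WT libraries themselves differed by over 2-fold.

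The 3 regulators of collagen fibrils and mineral had all HSALR values above all WT values, as did 17.8% of all genes. Dpt, which encodes dermatopontin, a partner of decorin that speeds fibril formation, had 202.5, 75.5 and 101 CPM in HSALR libraries 1, 2 and 3, against 49.9, 53.5 and 75.2 CPM in WT libraries. The lowest HSALR value was only just above the highest WT value, and the log2 fold change was 1.09 ± 0.37 (adjusted p = 0.094, edgeR). Mgp, encoding matrix Gla protein, an inhibitor of calcification, had 35.0, 14.5 and 17.7 CPM in HSALR libraries 1, 2 and 3, against 9.27, 12.1 and 10.5 CPM in WT libraries. Its log2 fold change was 1.07 ± 0.32 (adjusted p = 0.067, edgeR) and 0.61 ± 0.17 without HSALR replicate 1 (adjusted p = 0.0398). Pcolce, which enhances the cleavage of procollagen, had 111.5, 42.0 and 56.9 CPM in HSALR libraries 1, 2 and 3, against 29.1, 29.6 and 28.1 CPM in WT libraries. The WT libraries were within 2 CPM of each other, and the log2 fold change was 1.27 ± 0.33 (adjusted p = 0.05 in the edgeR test, not below the threshold) and 0.78 ± 0.15 without HSALR replicate 1 (adjusted p = 0.0074).

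Compared per length, few genes made up most of the matrix RNA. As a share of the summed TPM of the 43 genes, averaged over the 6 libraries, Dcn took 25.8%, Sparc 9.90%, Lamb2 5.85%, Dpt 4.66% and Fn1 3.90%, which together came to 50.1%. Dcn made up 28.1, 23.9 and 22.1% in HSALR, against 27.3, 26.4 and 27.1% in WT. The 8 basement membrane genes together made up 12.7%, 19.9% and 17.9% in HSALR libraries, against 20.7%, 18.3% and 17.9% in WT libraries, so that only HSALR replicate 1 was below the WT range by more than a small margin.

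A factor common to all 43 genes in a library cancels in such shares. On this measure 9 of 43 genes, all of them interstitial, were higher in all 3 HSALR libraries than in all WT libraries. These were Fn1, Tnxb, Fbln2, Mgp, Pcolce, Bgn, Lum, Thbs2 and Fbln1. Pcolce made up 3.11, 2.98 and 3.12% in HSALR, against 2.5, 2.17 and 2.23% in WT, and Fn1 4.03, 4.39 and 4.38% in HSALR, against 3.48, 3.54 and 3.56% in WT. Hspg2, Lamb1, Eln and Ogn were lower in all 3, or 4 of 43. Hspg2 made up 1.56, 2.14 and 2.18% in HSALR, against 2.76, 2.46 and 2.44% in WT. A change in the length of a single gene does not cancel, as TPM divides by length. Hspg2, Lamb1 and Eln had longer lengths in all HSALR libraries, and Fbln2 and Tnxb shorter ones, while the length of Ogn did not change. The shares also sum to a fixed total, so that a rise in some genes lowers others. These counts are a description, with no test and no share over all genes.

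**Figure D4:**
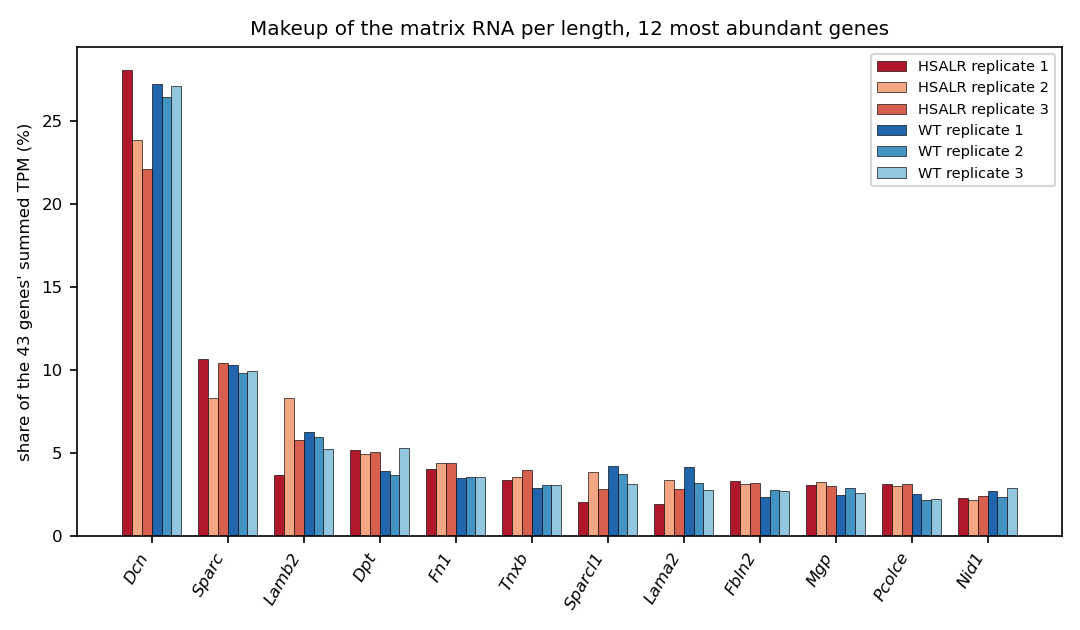
Bars give the share of each of the 12 most abundant genes in the summed TPM of all 43 genes, in percent, for each library (red shades, HSALR; blue shades, WT). Dcn is the largest share in every library, at 22.1% to 28.1%, and the Fn1, Tnxb, Fbln2, Mgp and Pcolce bars are higher in all HSALR libraries than in all WT libraries.

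Lamb2 behaved in the opposite way to Ltbp1 with regard to length. The deposited length was 2988, 2641 and 3106 bases in HSALR libraries, against 3864, 3484 and 3884 bases in WT libraries. The annotation gives the gene (ENSMUSG00000052911, plus strand, chr9:108356935-108367729 of GRCm39) 1 full transcript of 5636 bases and 6 short ones of 221 to 683 bases. A lower mean length means that the short transcripts, 3 of which are retained introns, took a larger share of those estimated for the gene. With the effective length offset the log2 fold change of Lamb2 was 0.65 ± 0.15 (adjusted p = 0.0399, edgeR), and it was then the only member called. In that fit 253 of 13576 genes were called higher. As TPM Lamb2 was at 23.6, 43.4 and 36.3 in HSALR libraries, against 30.8, 35.4 and 27.2 in WT libraries. The groups overlapped there, and HSALR replicate 1 was the lowest library. On log2 TPM with each library centred on its median, the difference was 0.564 (adjusted p = 0.0684, limma).

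Other genes of the same matrix were read from lists set by function, with earlier results of these data known. Of 19 further basement membrane genes tested, 1 was higher, against 4.28% of all genes, and 0 lower, against 7.48% (median log2 fold change 0.23). This was Hmcn2, encoding hemicentin-2, with 518, 272 and 399.7 CPM in HSALR libraries 1, 2 and 3, against 105, 159.8 and 158 CPM in WT libraries (log2 fold change 1.49 ± 0.26, adjusted p = 0.0127, edgeR). Of 38 further interstitial genes 3 were higher, against 4.28% of all genes, and 0 lower, against 7.48% (median 0.96). Spock2, a testican proteoglycan, rose to 7.9, 6.94 and 7.59 CPM in HSALR, against 2.9, 3.58 and 3.5 CPM in WT. Srpx, a sushi-repeat protein gene, rose to 13.4, 6.86 and 9.06 CPM in HSALR, against 4.74, 2.65 and 3.05 CPM in WT. Mfge8, which encodes an integrin-binding milk fat globule protein, rose to 48.9, 32.1 and 43.8 CPM in HSALR, against 19.1, 23.4 and 30.0 CPM in WT, but with an adjusted p of 0.058 without HSALR replicate 1.

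Of 27 genes for receptors of the matrix 3 were higher, against 4.28% of all genes, and 2 were lower, against 7.48% (median log2 fold change 0.57). Itga7, the integrin alpha chain by which muscle fibres bind laminin, fell to 40.2, 47.3 and 45.0 CPM in HSALR, against 71.3, 67.6 and 67.1 CPM in WT (log2 fold change -0.64 ± 0.12, adjusted p = 0.0167, edgeR). Dag1, encoding dystroglycan, the other main laminin receptor of muscle, fell to 130.3, 139.9 and 132 CPM in HSALR, against 192, 182 and 182 CPM in WT (log2 fold change -0.47 ± 0.12, adjusted p = 0.0443, edgeR). The 3 HSALR libraries were close together in both genes and below every WT library. In 20 alternative analyses the call was lost in 6 for Itga7 and in 14 for Dag1. The laminin chains Lama2, Lamb1 and Lamc1 were not called in either direction, which does not show that they were unchanged. The 8 muscle fibre markers described below had a median log2 fold change of -0.65, with 1 above 0. Whether the receptors fell apart from these markers was not tested.

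The other called receptors were higher in HSALR muscle. Itga9, an integrin chain that binds tenascin C, rose to 27.3, 15.4 and 17.7 CPM in HSALR, against 9.05, 10.6 and 10.3 CPM in WT. Cd44, the hyaluronan receptor, rose to 17.8, 7.99 and 10.9 CPM in HSALR, against 5.45, 5.96 and 5.72 CPM in WT. Itgb3, a chain of the vitronectin receptor, rose to 7.04, 3.55 and 5.3 CPM in HSALR, against 1.91, 2.32 and 2.6 CPM in WT. Of 28 genes for glycosaminoglycan chain synthesis 0 were higher and 2 lower, against 4.28% and 7.48% of all genes (median 0.33). These were Ndst1, a heparan sulfate sulfotransferase, at 40.0, 37.3 and 39.8 CPM in HSALR, against 54.1, 55.6 and 57.8 CPM in WT (adjusted p = 0.0266, edgeR), and Fam20b, the xylose kinase that promotes chain growth, at 20.9, 26.5 and 25.8 CPM in HSALR, against 36.6, 38.5 and 33.9 CPM in WT (adjusted p = 0.0323, edgeR).

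Markers of the cells that could hold these RNAs differed between the HSALR libraries too. The shares of all genes to set beside the marker calls are 4.28% higher and 7.48% lower. The 10 fibroblast markers had medians of 1.47, 0.02 and 0.41 in HSALR replicates 1, 2 and 3 as log2 ratios to the WT mean, the same order as the matrix genes, and summed to 4696, 1897 and 2652 CPM in HSALR libraries, against 1377, 1535 and 1531 CPM in WT libraries. Gsn made up 88.2% of this sum over the 6 libraries, and without it the sums were 553, 198 and 259 CPM in HSALR libraries, against 196, 195 and 216 CPM in WT libraries, with HSALR replicate 2 inside the WT range. Of these markers 1 was higher, Gsn, and Pdgfra, the defining receptor of these cells, had 139, 56.1 and 69.4 CPM in HSALR, against 49.6, 43.4 and 46.5 CPM in WT (adjusted p = 0.0941, edgeR). The 8 tendon cell markers, among which Kera, Fmod, Thbs4, Comp and Chad were also counted as further interstitial genes, summed to 989.7, 178 and 355 CPM in HSALR libraries, against 153, 295 and 175 CPM in WT libraries, and 0 was called. Tnmd, the defining tendon gene, was at 29.7, 3.71 and 5.44 CPM in HSALR, against 2.83, 6.56 and 4.61 CPM in WT, and only HSALR replicate 1 was above the WT range.

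The 10 macrophage markers had 5 higher, with a summed level of 718, 235 and 333 CPM in HSALR libraries, against 161, 183 and 171 CPM in WT libraries and no overlap between the groups. The 8 muscle fibre markers, with 1 lower, Ryr1, summed to 70210, 152800 and 113000 CPM in HSALR libraries, against 239200, 206800 and 221600 CPM in WT libraries, and here HSALR replicate 1 was the lowest and replicate 2 the nearest to WT. Ttn made up 56.9% of this sum and was at 29660, 79680 and 56100 CPM in HSALR, against 147200, 125500 and 133100 CPM in WT. Mb, the myoglobin gene, was at 3205, 2823 and 2762 CPM in HSALR, against 1803, 2234 and 1892 CPM in WT, with a log2 fold change of 0.57 ± 0.18 (adjusted p = 0.0695, edgeR) and, without HSALR replicate 1, where it was called, 0.51 ± 0.13 (adjusted p = 0.0298). Endothelial markers had 1 of 9 lower, Flt1, and summed to 248, 161 and 176 CPM in HSALR libraries, against 195, 219 and 193 CPM in WT libraries. Smooth muscle and pericyte markers had 1 of 9 higher, Cspg4, and 1 lower, Abcc9, and summed to 542, 477 and 491 CPM in HSALR libraries, against 627, 645 and 598 CPM in WT libraries. Without Abcc9, 45% of that sum, the sums were 395.5, 252 and 300.1 CPM in HSALR libraries, against 282, 327.5 and 302 CPM in WT libraries, so that the groups overlapped and HSALR replicate 1 was the highest. The 6 adipocyte markers, with 0 called, summed to 223.5, 231 and 1493 CPM in HSALR libraries, against 75.3, 211 and 474 CPM in WT libraries. Of the Schwann cell and satellite cell markers 0 of 6 and 0 of 4 were called. None of these lists had a gene at 0 in all libraries, and the part of these cells in the matrix levels was not tested.

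**Figure D5:**
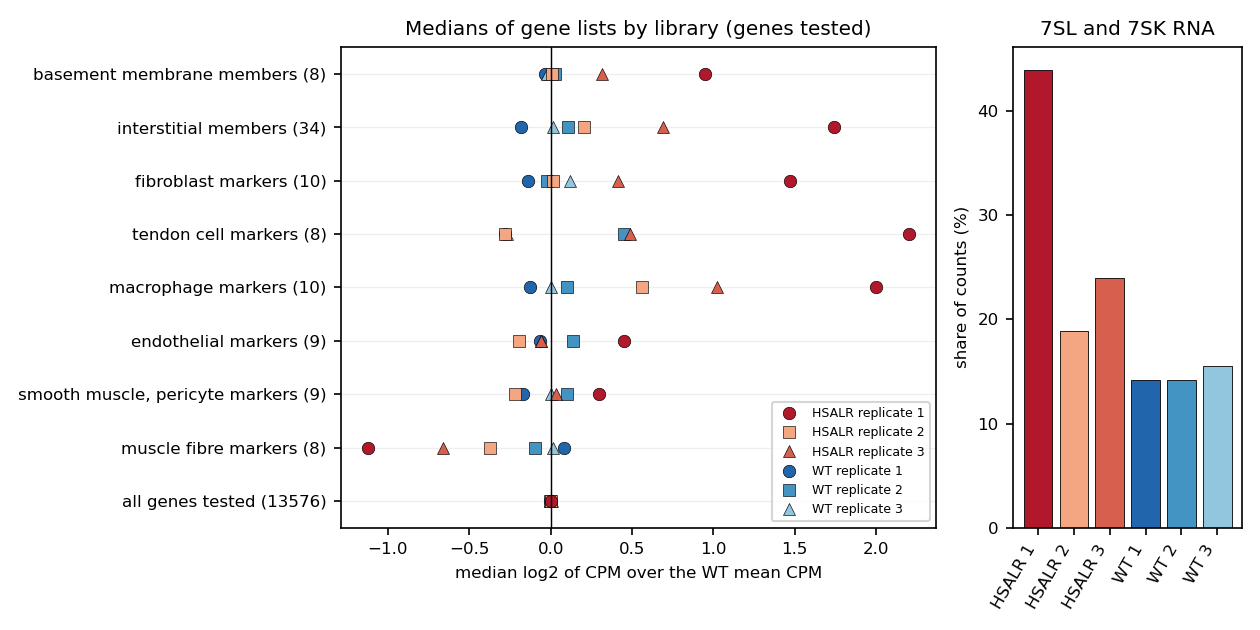
Left, the median log2 ratio of each gene list to the WT mean CPM in every library, with the number of genes tested in parentheses. Right, the share of counts in 7SL and 7SK RNA, in percent. HSALR replicate 1 is the rightmost point for interstitial genes (1.74), basement membrane genes (0.95), fibroblast markers (1.47) and macrophage markers (2.00). It is also the rightmost for tendon cell (2.20), endothelial (0.45) and smooth muscle and pericyte markers (0.30). For muscle fibre markers it is the leftmost (-1.12), and it has the highest bar.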

How the data were processed

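Total RNA of 3 HSALR and 3 WT quadriceps samples, which the labels do not say are from separate mice, was extracted with TRIzol and made into stranded libraries after removal of ribosomal RNA. Per the submitters' processing notes Bowtie2 and RSEM 1.3.1 were used with GRCm39, while the annotation release and the strand option were not given in the sources used here. The deposited expected counts are the authors' RSEM estimates per gene and need not be whole; 38 of 43 members had whole values in all libraries. The authors also deposited TPM and FPKM, which divide by length and depth, and FPKM was not used. The deposited length and effective length, given per gene and library by the authors, are means over isoforms weighted by abundance.

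Gene symbols were taken from GENCODE mouse release 39 by stable gene ID, with 53400 of 53947 IDs matched (98.99%). Expected counts were rounded, filtered with filterByExpr, scaled by TMM and fitted with the robust quasi-likelihood F test of edgeR 4.0.16 in R 4.3.3, with group as the only term, and p-values were adjusted by Benjamini-Hochberg over all 13576 genes tested. The study's methods state no test for these libraries. The test was tested on simulated data. Alternatives used DESeq2 1.42.0, limma 3.58.1 (voom on counts, trend on log2 of TPM plus 0.1 or 1), other scalings, filters, length corrections, a covariate, a replicate block and leaving out each library. A fold change on the log2(TPM + pseudocount) scale understates the change of low genes. Library totals were 11468913 to 15023668, at which 3 counts correspond to 0.199 to 0.285 CPM. Replicates were separate libraries (chi-square per degree of freedom of 9.86 or more within groups).

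Members, lists and tests were chosen with earlier results of these data known. Values were given for every called member, for the 2 most abundant per length in each role group, and for other members where the account needed them. From each further list the 3 called genes with the lowest p were named, and the other called receptors were added after their values were seen. Same-numbered replicates did not pair: their deviations correlated at r = 0.00884, -0.0849 and 0.216 over genes. Promoter sequences came from RefSeq (GRCm38.p6), where 29 of 43 members had an entry.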

Additional observations from a re-analysis of the deposited data

How the results depend on the processing

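Over 20 alternatives, members called lower stayed at 0. The count of members called higher, 1 in the main analysis, was 17 with DESeq2, 0 with limma on TPM (pseudocount 0.1 or 1, and with libraries centred), 3 with RLE factors, 4 with upper-quartile factors, 3 with library sizes that leave out the most abundant genes, 2 with no filter, 4 with at least 1 CPM in all libraries and 4 with the length trend removed. It was 1 with voom, the covariate, the effective length offset (there Lamb2) and the replicate block, in which Ltbp1 kept its call (log2 fold change 0.93, adjusted p = 0.0277). The numbers do not pair the samples. Over all genes the replicate block called 254 higher and 545 lower, against 581 and 1016 without it. Leaving out 1 library gave 0 to 22 members: 9 without HSALR replicate 1, 22 without HSALR replicate 2 and 0 without HSALR replicate 3 or any WT replicate, where 42 to 50 genes were called higher in all, against 826 without HSALR replicate 1 and 1479 without HSALR replicate 2. Genes called higher and lower over the table were 1164 and 1264 with DESeq2, 455 and 1019 with voom, 50 and 469 on TPM plus 0.1, 78 and 747 on TPM plus 1, 188 and 403 with centring, 728 and 781 with upper-quartile factors, 1197 and 635 with library sizes that leave out the abundant genes, 253 and 487 with the length offset, 322 and 768 with the length trend removed and 362 and 573 with the covariate. The cause of these shifts was not tested.

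The basement membrane median of 0.49 was -0.09 and -0.083 on TPM plus 0.1 and plus 1, and -0.08 with the covariate, where the interstitial median of 1.08 was 0.11. The covariate cannot be fully separated from group, as it was higher in every HSALR library than in every WT library. TPM with a pseudocount of 0.1 or 1 moved the median of all genes to -0.46 or -0.28, against 0.04.

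On TPM plus 0.1, log2 differences below 0 were Nid1 -0.047, Nid2 -0.011, Hspg2 -0.227, Lama2 -0.178, Lamb1 -0.147, Lamc1 -0.134, Eln -0.577, Fbln5 -0.105, Ltbp1 -0.339, Ogn -0.23, Podn -0.228, Sparcl1 -0.212, Ccn1 -0.214 and Ccn2 -0.181. On TPM plus 1 they were Nid1 -0.043, Nid2 -0.023, Hspg2 -0.211, Lama2 -0.168, Lamb1 -0.123, Lamc1 -0.123, Eln -0.337, Fbln5 -0.082, Ltbp1 -0.298, Ogn -0.208, Podn -0.17, Sparcl1 -0.201, Ccn1 -0.19 and Ccn2 -0.17. With the share of 7SL and 7SK as a covariate they were Nid1 -0.236, Nid2 -0.089, Hspg2 -0.071, Lama2 -0.101, Lama4 -0.043, Lamb1 -0.058, Lamc1 -0.209, Eln -0.24, Fbn1 -0.066, Fbln5 -0.46, Efemp1 -0.01, Efemp2 -0.084, Mfap5 -0.367, Dcn -0.316, Ogn -0.544, Prelp -0.037, Vcan -0.395, Sparc -0.194, Ccn2 -0.241, Ccn5 -0.435, Tnc -0.331 and Thbs1 -0.226. With centred TPM Eln was -0.12 and with the length offset -0.07. Leaving out 1 library gave -0.066 to 0.224 for Eln and -0.133 to 0.734 for Ogn, both lowest without HSALR replicate 1 and highest without HSALR replicate 2. The 11 called matrix, receptor and chain-synthesis genes outside the 43 kept their direction in all 20 alternatives, and their calls were lost in 6 (Itga7) to 14 (Dag1) of them. The alternatives were not run for the called cell type markers.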
